A study of Mus musculus with 6 samples.

Results

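The PYHIN family, known in mouse as the Ifi200 family, was examined in the healthy hematopoietic stem and progenitor cells (HSPCs) of mice carrying acute myeloid leukemia (AML). The members were chosen by gene symbol as Ifi203, Ifi204, Ifi207, Ifi208, Ifi209, Ifi211, Ifi213, Mnda, Mndal and Aim2. Of these 10 symbols, 9 were found among the 32285 genes of the count matrices. Mnda was not found as a symbol of its own, and RefSeq lists it as a synonym of Ifi211. The matrices also hold 4 other family genes, Ifi202b, Ifi205, Ifi206 and Ifi214.

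HSPCs came from female C57BL/6J (CD45.1) mice aged 8 to 12 weeks that had received no conditioning. The AML group was injected with 1000000 cells of C1498, a murine AML line that carries CD45.2, and the control group was injected with PBS. All mice were sacrificed at day 21, and bone marrow was sorted for lineage-negative cells that carry CD45.1, cKit and Sca1 (LSK cells), so that the cells measured were those of the host. Single-cell 3′ libraries (10x Chromium V3) were made for 3 PBS and 3 AML samples, and each cell is described by its counts of unique molecular identifiers (UMIs).

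PYHIN proteins join a pyrin domain, which binds other pyrin domains, to HIN domains, which bind DNA, although some members have only one kind of domain. Aim2 senses DNA in the cytosol and assembles an inflammasome with the adaptor ASC (Pycard) and caspase-1. Ifi204 (p204) acts in DNA sensing upstream of STING, and many of the remaining members are nuclear proteins whose genes are induced by interferon.

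The 13 family genes of the matrices lie side by side on chromosome 1, in an interval of 681 kb (GRCm38, chr1:173350879-174031810, GENCODE M21). Aim2, at one end, Ifi209 and Ifi208 are on the forward strand and the other 10 are on the reverse strand. Several members cannot be told apart cleanly by short reads. The annotated span of Ifi211 (chr1:173896345-173913046) lies 100% within that of Mndal on the same strand (chr1:173849126-173942491), and 99.2% of the span of Ifi203 (chr1:173920407-173942672) does so as well. Exons overlap little, with 0% of the exon bases of Ifi211, 0.552% of Ifi203 and 1.02% of Mndal shared. A RefSeq promoter window of Mndal printed below (chr1:173880194-173880238) lies inside that span, so the overlap of spans depends on the annotation used. Of all 50-base stretches in the annotated transcripts, 72.8% of those of Ifi211 were also found in another family gene or in the pseudogene Ifi203-ps, against 33.4% for Ifi209, 15.6% for Ifi213, 12.2% for Ifi203, 17.7% for Mndal and 0% for Aim2. In the last 500 bases, at the end that 3′ libraries read, the share was 77.4% for Ifi211 and 47.8% for Ifi209. It was 18.7% for Ifi213, 9.10% for Ifi203, 22.9% for Mndal and 0% for Aim2 there. The closest relative was Ifi205 for Ifi211, Ifi214 for Ifi209 and Ifi208 for Ifi213. Values of single members other than Aim2 are therefore uncertain to the degree that reads were dropped or divided between copies, and the sum over the 9 members is given as well.

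The promoters bear on how alike the members are, since interferon acts on many genes through a short element, the interferon-stimulated response element. RefSeq promoter windows (GRCm38.p6, 250 bases before to 50 bases after the annotated start) were available for 8 of the 9 members and for the 4 other family genes. The core of the element, GAAANNGAAA on either strand, was present in 6 of the 8 members and in 3 of the 4 other family genes. Counted in the same way, by gene with a match in any of its windows, it was present in 3.99% of all 27025 genes. It was also present in 12 of 21 interferon-stimulated genes outside the family. Of the 2 members without it, Ifi209 holds only the shorter AAANNGAAA, which overlaps the core by definition and is present in 12.1% of all genes, and Aim2 holds neither. The core of the gamma-activated site, TTCNNNGAA, was found in 0 of the 8 members, against 9.55% of all genes. The windows around the element are given because some of them are identical between members, with the matched core in capitals and each sequence written 5′ to 3′ on the strand of its gene.
Ifi213 (chr1:173599316-173599360, reverse strand): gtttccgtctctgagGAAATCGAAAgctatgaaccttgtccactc
Ifi208 (chr1:173673592-173673636, forward strand): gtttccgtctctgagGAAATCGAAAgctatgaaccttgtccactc
Ifi209 (chr1:173630766-173630809, forward strand): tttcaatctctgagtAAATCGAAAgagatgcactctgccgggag
Ifi214 (chr1:173536007-173536051, reverse strand): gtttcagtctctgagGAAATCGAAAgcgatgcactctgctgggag
Ifi203 (chr1:173942498-173942542, reverse strand): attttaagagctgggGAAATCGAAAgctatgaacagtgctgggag
Mndal (chr1:173880194-173880238, reverse strand): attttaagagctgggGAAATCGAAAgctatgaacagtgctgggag
Ifi211 (chr1:173913054-173913098, reverse strand): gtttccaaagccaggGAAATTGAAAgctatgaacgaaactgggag
Ifi207 (chr1:173741821-173741865, reverse strand): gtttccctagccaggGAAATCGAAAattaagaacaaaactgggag
The windows of Ifi213 and Ifi208 were identical over 45 bases, as were those of Ifi203 and Mndal. The window of Ifi209 was most like that of Ifi214, with 40 of 44 bases the same when aligned from the 3′ end, and shared fewer with those of Ifi203 and Mndal (32 of 44). Those of Ifi211 and Ifi207 were most like that of Ifi205 (42 and 39 of 45), and that of Ifi206 shared 44 of 45 bases with Ifi213. A match to the core describes the letters only and was not tested for binding.

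The authors' cell table keeps 16822 of 48510 barcodes. In PBS the 3 libraries gave 6838, 934 and 4398 cells. AML replicate 1 gave 693 cells and AML replicate 3 gave 3959. No cell of AML replicate 2 is in it, which leaves 3 PBS and 2 AML libraries to compare. AML replicate 1 is shallow, with 1945659 UMIs in kept cells against 10403685 to 32123508 in the other 4 libraries. It also stands apart in make-up. Cells called G1 made up 14.7% of it and cells called G2M 52.4%, against 49.0% to 58.2% and 18.3% to 24.1% in the other 4 libraries, and HSC made up 3.32%, against 13.7% to 23.9%. Its log2 CPM correlated with those of the others at r = 0.92 to 0.94, against 0.97 to 0.98 among them (across genes, as a description). MPP3 made up 4.39% to 11.6% of cells in PBS and 32.9% and 22.3% in AML replicates 1 and 3. Libraries shared 0 to 12 kept barcodes, at most 0.535% of the smaller library. The LSK marker list (10 genes, among them Kit, Ly6a and Cd34) summed to 1148 to 1328 counts per 1000000 UMIs (CPM) in PBS and 1098 to 1274 in AML, and none of the 10 genes passed the test, although 4 of them lay lower in both AML libraries than in every PBS library. Whether the samples came from separate mice is not stated in the labels, so p-values measure the spread between these samples, which may be technical.

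In LSK cells of PBS mice, the family was dominated by Ifi203 and Mndal. These made up 82.3% to 85.2% of the family's UMIs in the 3 PBS libraries and 79.4% and 81.3% in AML replicates 3 and 1. Aim2 followed with 11.4% to 14.3% in PBS and 8.76% and 11.4% in AML. The remaining 6 members together gave 3.38% to 3.66% of family UMIs in PBS and 9.21% and 9.97% in AML, without overlap between the groups. Shares are of UMI counts, not corrected for transcript length, and the split into 3 abundant and 6 scarce members was made after their values were seen. Ifi203 and Mndal stood in similar proportion, with 1.04 to 1.09 Ifi203 UMIs per Mndal UMI in PBS, 1.205 and 1.03 in AML replicates 1 and 3.

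The first comparison asked which members differ between LSK cells of AML and PBS mice. Ifi209 and Ifi213 rose, by 3.87-fold and 3.00-fold. Ifi209 stood at 5.92, 4.11 and 6.27 CPM (204, 42 and 132 UMIs) in PBS replicates 1, 2 and 3, and at 25.8 and 18.6 CPM (50 and 525 UMIs) in AML replicates 1 and 3. Both AML libraries thus lay well above every PBS library. The means were 5.43 ± 1.16 CPM (SD, n = 3) and 22.2 ± 5.12 CPM (SD, n = 2), with a log2 fold change of 1.95 ± 0.257 (SE; edgeR quasi-likelihood test, Benjamini-Hochberg adjusted p = 0.00708). Ifi213 stood at 5.86, 4.11 and 5.74 CPM in PBS and at 14.5 and 16.8 CPM in AML, again without overlap. Its log2 fold change was 1.58 ± 0.248 (edgeR adjusted p = 0.0183), from 5.24 ± 0.979 to 15.6 ± 1.66 CPM. These were 2 of 9 members, against 0.153% of all 14364 genes tested that were called higher in AML, and no member was called lower. In bulk sums such as these, more cells of an expressing kind and more RNA per cell cannot be told apart.

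**Figure D1:**
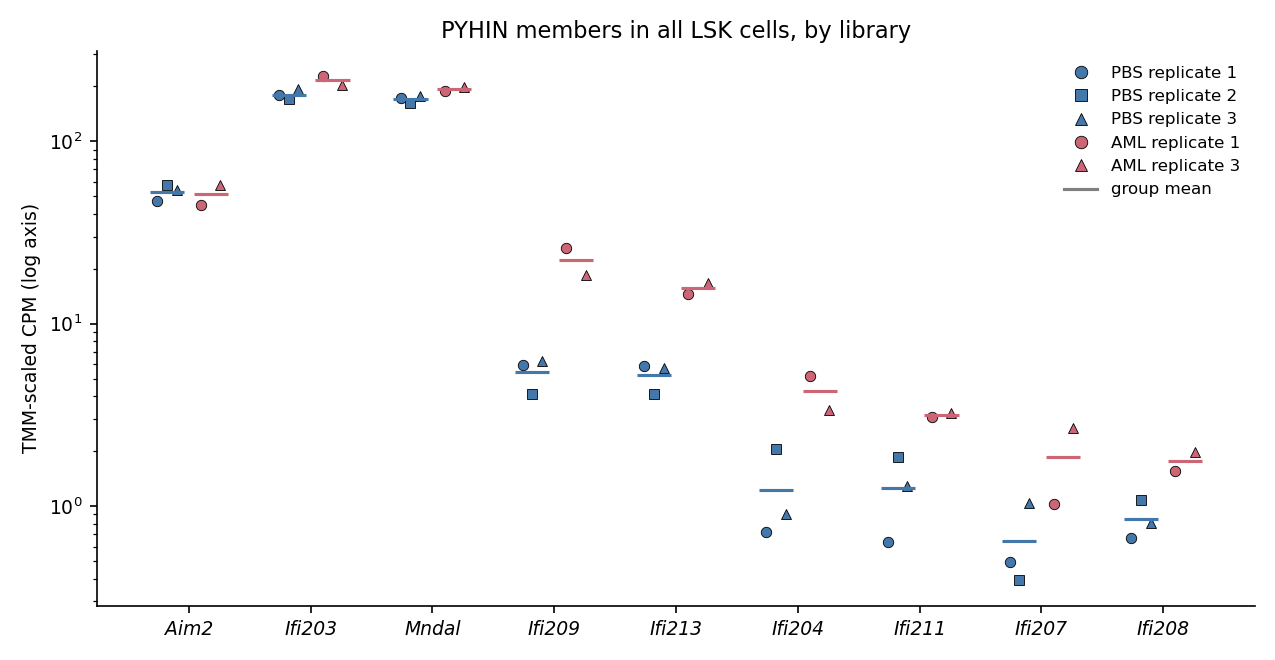
Level of each member in all LSK cells, in CPM scaled by TMM (trimmed mean of M-values) on a log axis, with 1 point per library (blue, 3 PBS; red, 2 AML) and a line at each group mean. Ifi209 and Ifi213 show AML libraries at 14.5 to 25.8 CPM over PBS libraries at 4.11 to 6.27 CPM, while Aim2 overlaps between the groups.

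The other 4 scarce members had higher means in AML but did not pass the adjusted test. Ifi204, the STING-linked sensor, stood at 0.725, 2.05 and 0.902 CPM in PBS and 5.16 and 3.36 CPM in AML (log2 fold change 1.79 ± 0.485, edgeR adjusted p = 0.208). Ifi211 stood at 0.638, 1.86 and 1.28 CPM in PBS and 3.10 and 3.25 CPM in AML (1.45 ± 0.469, edgeR adjusted p = 0.306). Ifi208 gave 3 and 56 UMIs in the AML libraries (1.19 ± 0.476, edgeR adjusted p = 0.415), and Ifi207 gave 2 and 76 UMIs, with overlapping groups (1.77 ± 0.528, edgeR adjusted p = 0.262). For these genes the shallow AML replicate 1 contributed 2 to 10 UMIs each. Without a filter on low counts, Ifi204 (edgeR adjusted p = 0.00909) and Ifi207 (0.0371) were called, and Ifi204 was called with the replicate number as a block (0.0235).

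The abundant members differed less. Ifi203 stood at 179, 169 and 192 CPM in PBS and 228 and 204 CPM in AML, a log2 fold change of 0.26 with a 95% interval from -0.20 to 0.72. Mndal stood at 172, 162 and 176 CPM in PBS and 189 and 198 CPM in AML (0.19, interval -0.27 to 0.64). For both genes the AML libraries lay above the PBS libraries, but the difference did not pass the test (edgeR adjusted p = 0.690 and 0.781). Aim2, the inflammasome sensor, stood at 46.9, 57.5 and 54.2 CPM in PBS and 44.9 and 57.8 CPM in AML, with overlapping groups and a log2 fold change of -0.02 (interval -0.46 to 0.42). Over all 9 members, AML lay wholly above PBS in 7, against 14.6% of all genes tested. The median log2 fold change of the members was 1.45, beside -0.03 over all genes tested.

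The sum of the 9 members stood at 412, 402 and 439 CPM in PBS and at 513 and 507 CPM in AML, a ratio of means of 1.22 (417.7 ± 18.8 and 509.7 ± 4.11 CPM). The 6 scarce members summed to 14.3, 13.6 and 16.0 CPM in PBS and 51.1 and 46.6 CPM in AML, a ratio of 3.34, whereas Ifi203, Mndal and Aim2 together gave a ratio of 1.14 (403 and 461 CPM). The groups did not overlap in any of these sums over the 5 libraries, which were given no test.

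The calls depended on single libraries. Without AML replicate 1, the library that stands apart, the log2 fold changes were 1.76 for Ifi209 and 1.67 for Ifi213. That fit holds 1 AML library and so no spread between AML libraries, as does the fit without AML replicate 3. Without PBS replicate 1 neither member passed (edgeR adjusted p = 0.0738 for Ifi209 and 0.133 for Ifi213), and Ifi213 also missed the threshold without PBS replicate 2 (0.0877), without PBS replicate 3 (0.0521), without AML replicate 3 (0.0538) and with each cell thinned to 2000 UMIs (0.0615), while both log2 fold changes stayed positive throughout.

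Of the other family genes, Ifi202b had 0 UMIs, and Ifi205, Ifi206 and Ifi214 were tested without a call, with a median log2 fold change of 1.00. Interferon-stimulated genes outside the family had 0 of 28 called, with 25 of 28 positive and a median log2 fold change of 0.52. Partners of Aim2 and of DNA sensing, such as the adaptor ASC and STING, had 0 of 13 called and a median of 0.01. The interferon-stimulated genes summed to 1019 to 1162 CPM in PBS and 1553 to 1818 CPM in AML. Of 17 monocyte and macrophage markers tested, 14 had a positive log2 fold change and 6 were called higher (among them F13a1, Ly86, Ms4a6c and Irf8). The list of 18 summed to 223 to 236 CPM in PBS and 553 to 639 CPM in AML, with Cd14 at 0 in AML replicate 1. Lyz2 went the other way, at 66.2 to 128 CPM in PBS and at 42.1 and 57.3 CPM in AML replicates 1 and 3. Neutrophil markers summed to 772 to 1328 CPM in PBS and 1806 to 1810 CPM in AML, with 1 of 10 tested genes called (Ctsg). None of the tested markers of erythroid (10), dendritic (8), B and plasma (9), T and NK (8) or mast cells and basophils (6) was called, with median log2 fold changes of -0.83, 0.32, -0.13, 0.58 and -0.36. Erythroid markers summed to 795 to 1181 CPM in PBS and 300.2 to 603 CPM in AML. The part of these markers in the members' values was not tested. Cluster 4 of the cell table, where monocyte markers were highest, held 3.04% of PBS cells and 9.80% of AML cells. Without the cells of cluster 4 the log2 fold change was 1.69 for Ifi209 (edgeR adjusted p = 0.0240) and 1.68 for Ifi213 (edgeR adjusted p = 0.0240). Among cells of phase G1 alone, an alternative chosen after seeing the data, it was 1.54 for Ifi209 (edgeR adjusted p = 0.0252) and 1.69 for Ifi213 (edgeR adjusted p = 0.00328), whereas that of Ifi211 was 0.12.

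**Figure D2:**
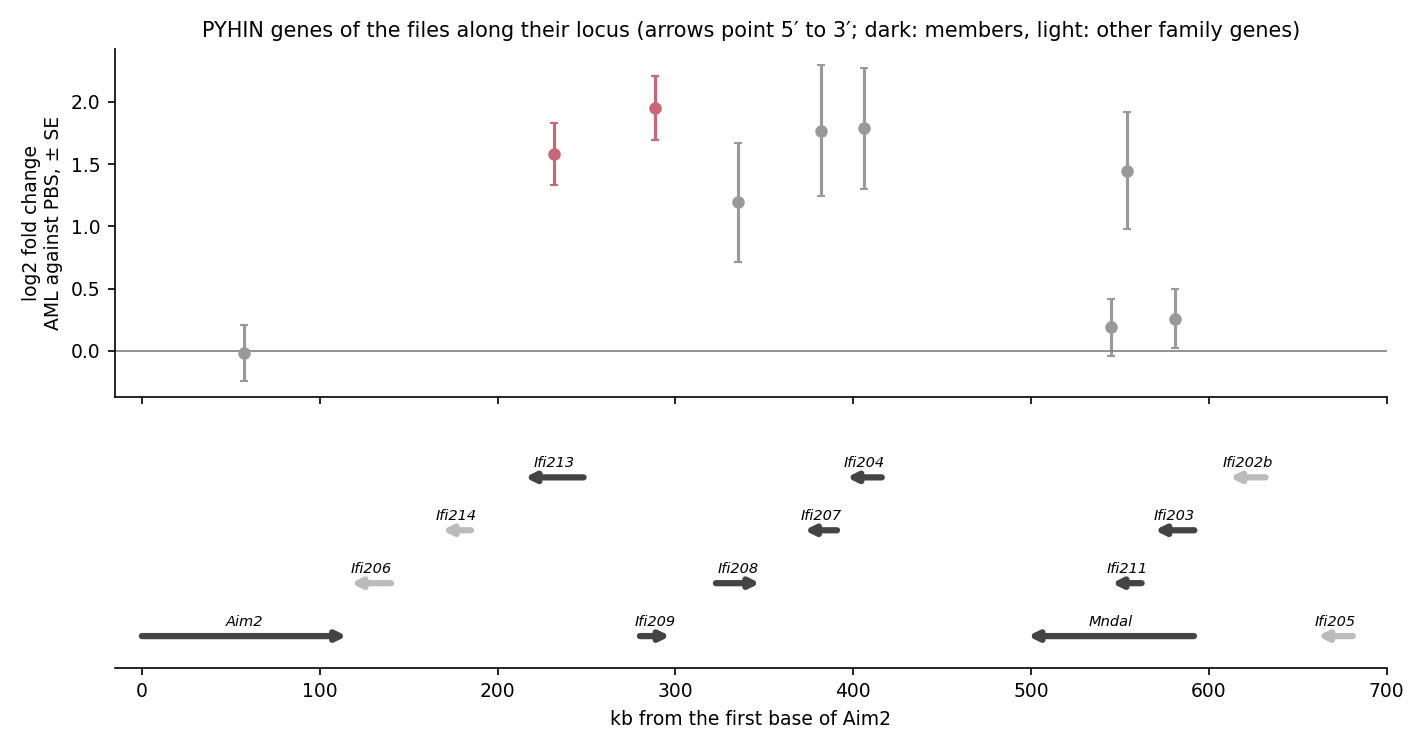
Upper panel, log2 fold change of each member in all LSK cells (AML against PBS, bars ± SE, red where the adjusted p is under 0.05), placed at the middle of its gene. Lower panel, the 13 family genes to scale in kb from the first base of Aim2, with arrows pointing 5′ to 3′. The scarce members between 215 and 416 kb and Ifi211 lie at log2 fold changes of 1.19 to 1.95, and Aim2, Mndal and Ifi203 lie between -0.02 and 0.26.

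The next comparison asked how the members are distributed over the 4 classes of the cell table (HSC, hematopoietic stem cells, and the multipotent progenitors MPP2, MPP3 and MPP4) in PBS mice. The classes came from module scores, and the gene lists behind the scores are not described here. Differences between classes were common, with 60.7% of 11793 genes called. Ifi213 differed between classes with an edgeR adjusted p of 8.49e-09, Ifi209 with 8.30e-07, Aim2 with 3.35e-06, Ifi203 with 9.66e-06 and Mndal with 5.48e-05. Ifi211 was called as well (2.16e-07), but it passed the filter on low counts through MPP3, where it is high, so that its call follows in part from the filter. Between pairs of classes the share of all genes called was 51.6% for MPP2 against HSC, 35.8% for MPP3 against HSC, 28.1% for MPP4 against HSC, 17.1% for MPP3 against MPP2, 47.4% for MPP4 against MPP2 and 21.9% for MPP4 against MPP3.

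The members followed different patterns. Ifi213 was highest in MPP4, the lymphoid-primed progenitors, with 10.9, 7.73 and 10.8 CPM in the 3 PBS libraries and at most 3.90 CPM in any library of another class. It exceeded HSC by 1.68 ± 0.243 on the log2 scale, MPP2 by 2.31 ± 0.218 and MPP3 by 1.80 ± 0.298, while HSC, MPP2 and MPP3 were not told apart (edgeR adjusted p = 0.106, 0.855 and 0.425 for their 3 pairs). Ifi209 was lowest in HSC, with 1.00, 1.57 and 0.00 CPM, intermediate in MPP2, with 4.12, 1.80 and 5.197 CPM, and higher in MPP3 and MPP4, with 7.89, 12.0 and 13.5 CPM and 8.54, 6.52 and 8.09 CPM. MPP3 and MPP4 were not told apart (log2 difference of -0.28 ± 0.278, edgeR adjusted p = 0.530), and the other 5 pairs of classes differed. Ifi211 was highest in MPP3, with 4.07, 38.4 and 8.54 CPM, against at most 0.72 CPM in any other class and library. The value of 38.4 CPM rests on 16 UMIs from 41 cells of PBS replicate 2. MPP3 held 17, 16 and 19 of the 22, 19 and 27 Ifi211 UMIs of the 3 libraries, and 34 of these 68 UMIs came from cluster 6 of the cell table, which is rich in immunoglobulin transcripts.

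**Figure D3:**
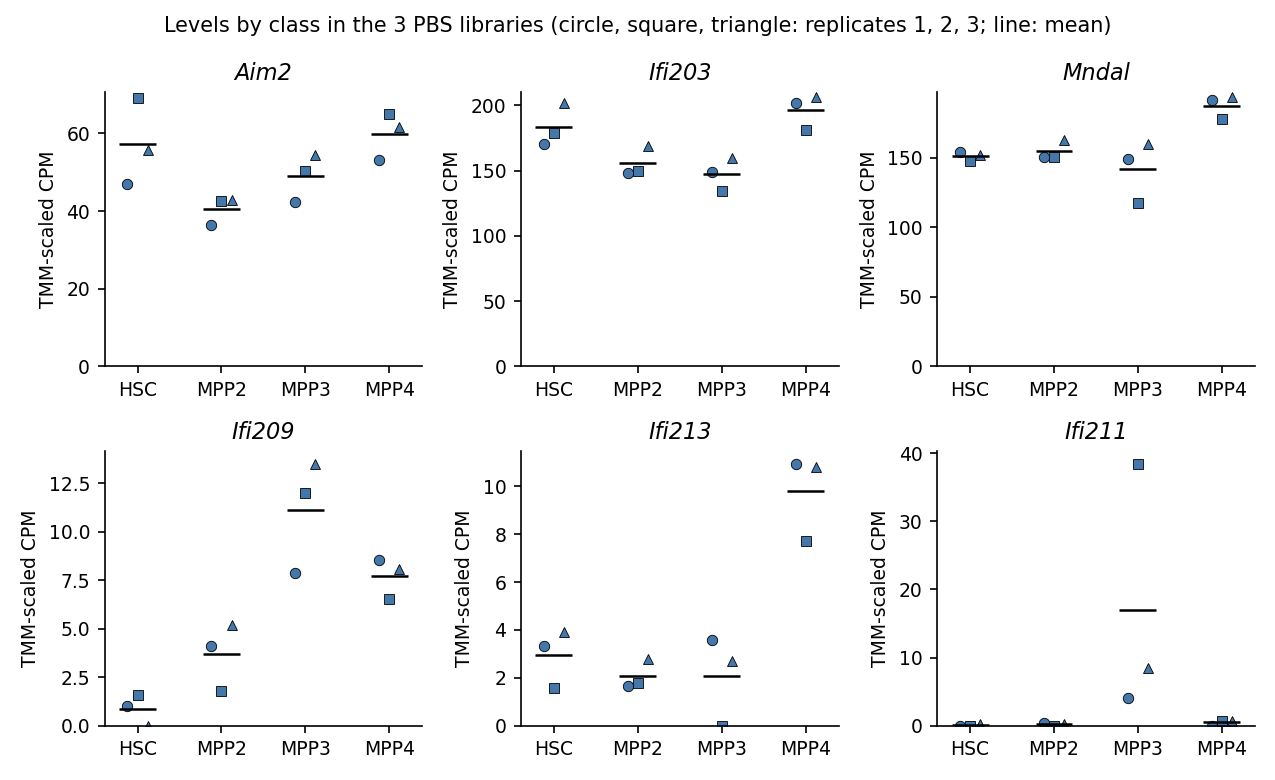
Level of the 6 members tested between classes, in TMM-scaled CPM, with 1 point for each of the 3 PBS libraries and a line at their mean. Ifi213 stands out in MPP4 and Ifi211 in MPP3, Ifi209 is low in HSC, and the 3 abundant members differ by less than their own level.

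The abundant members varied less. Ifi203 was higher in MPP4 (202, 181 and 207 CPM) and HSC (171, 179 and 202 CPM) than in MPP2 (148 to 169 CPM) and MPP3 (134 to 160 CPM). The differences within the first pair and within the second pair of classes did not pass the test (edgeR adjusted p = 0.175 and 0.705). Mndal was higher in MPP4 (178 to 193 CPM) than in the other classes, by 0.31 ± 0.0600, 0.28 ± 0.0556 and 0.34 ± 0.0677 on the log2 scale over HSC, MPP2 and MPP3, which were not told apart among themselves. Aim2 was lowest in MPP2 (36.4, 42.6 and 42.8 CPM), and highest in MPP4 (53.2 to 65.0 CPM) and HSC (47.1 to 69.1 CPM), which were not told apart. MPP3 (42.3 to 54.4 CPM) was not told apart from MPP2 (edgeR adjusted p = 0.0518) or from HSC (0.227). With each cell thinned to 2000 UMIs, Ifi203, Ifi209, Mndal and Aim2 were tested and differed between classes, against 47.9% of all genes, while Ifi211 and Ifi213 did not pass the filter. Ifi204, Ifi207 and Ifi208 were too scarce for this test, with at most 15 UMIs in any class and PBS library.

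Within classes, the question was where the increase with AML lay. TMM scaling was done anew for each comparison, so that CPM of the same libraries differ slightly from those between classes. In MPP2, Ifi213 rose, with 1.63, 1.77 and 2.68 CPM in PBS against 13.8 and 8.998 CPM in AML (log2 fold change 2.34 ± 0.386, edgeR adjusted p = 0.0376), a call shared by 0.0399% of all genes. Ifi209 in MPP2 stood at 4.07, 1.77 and 5.03 CPM in PBS and 13.8 and 13.8 CPM in AML (1.83 ± 0.350, edgeR adjusted p = 0.0743). Ifi204, Ifi207 and Ifi211 passed the filter in MPP2 mainly through the AML libraries, with at most 5 UMIs in any PBS library. The call of Ifi213 was lost on leaving out any one library (edgeR adjusted p = 0.113, 0.151 and 0.111 without PBS replicates 1, 2 and 3, and 0.157 and 0.0611 without AML replicates 1 and 3).

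Of 7, 7 and 3 members tested, none passed in MPP3, MPP4 and HSC, where 0.0194%, 0.0325% and 0.131% of all genes were called higher. In HSC only Ifi203, Mndal and Aim2 passed the filter on low counts, so this test could not call Ifi209 or Ifi213 there. In MPP3 Ifi209 stood at 7.02, 11.0 and 11.9 CPM in PBS and 45.2 and 26.0 CPM in AML (1.80 ± 0.361, edgeR adjusted p = 0.0754). In MPP4 Ifi213 stood at 12.1, 8.53 and 12.2 CPM in PBS and 26.9 and 29.3 CPM in AML (1.37 ± 0.269, edgeR adjusted p = 0.0627), and Ifi209 at 9.46, 7.20 and 9.14 CPM and 18.8 and 19.6 CPM (1.15 ± 0.284, edgeR adjusted p = 0.167). At an unadjusted p under 0.05 there were 2 of 7 members tested in MPP3, 4 of 7 in MPP4 and 0 of 3 in HSC, beside 761 of 10294, 730 of 12305 and 444 of 10668 genes. Ifi213, 1 of the 2 in MPP3, passed the filter mainly through the AML libraries, with 15, 0 and 6 UMIs in PBS replicates 1, 2 and 3. The monocyte marker list summed to 191 to 213 CPM in PBS and 454 and 490.1 CPM in AML in MPP2, to 369 to 453 and 1005 and 1066 CPM in MPP3, and to 206 to 215 and 328 and 353 CPM in MPP4, while in HSC the groups overlapped (172 to 259 and 201 and 375 CPM). In MPP2, 2 of 13 tested monocyte markers and 1 of 4 tested neutrophil markers were called higher, and the median log2 fold change of those 4 was 1.01. In MPP3, 2 of 13 tested monocyte markers were called higher and 1 of 6 tested neutrophil markers was called lower. Of 8 B and plasma cell markers tested in MPP3, 6 lay lower in both AML libraries than in every PBS library. None of those 8 was called, and their median log2 fold change was -2.02. The part of these markers in the members' values was not tested in any class.

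In HSC, AML replicate 1 has 23 cells, in which 3 counts amount to 40.6 CPM, and all 6 scarce members were at 0 UMIs. Ifi213 stood at 28.6 CPM (68 UMIs) in AML replicate 3 and at 4.02, 1.90 and 4.83 CPM in PBS, so that the AML value rests on 1 library, and the gene did not pass the filter on low counts. It was called without the filter, and on leaving out PBS replicate 2 or AML replicate 1. Of 28 interferon-stimulated genes outside the family, 9 were called higher in HSC, with a median log2 fold change of 0.92. Of 6 erythroid markers tested there, 4 were called lower, with a median of -3.59.

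Whether the effect of AML differed between the 4 classes was tested with an interaction term, and no member passed, against 0.872% of all 12734 genes. At an unadjusted p under 0.05 there were 2 of 9 members, beside 1383 genes. The lowest edgeR adjusted p were 0.0829 for Ifi213 and 0.153 for Ifi211. The fitted effect of AML on Ifi213 minus that in HSC was -0.58 in MPP2, -1.08 in MPP3 and -1.46 in MPP4 (log2), and in HSC only AML replicate 3 of the AML libraries had UMIs of the gene.

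**Figure D4:**
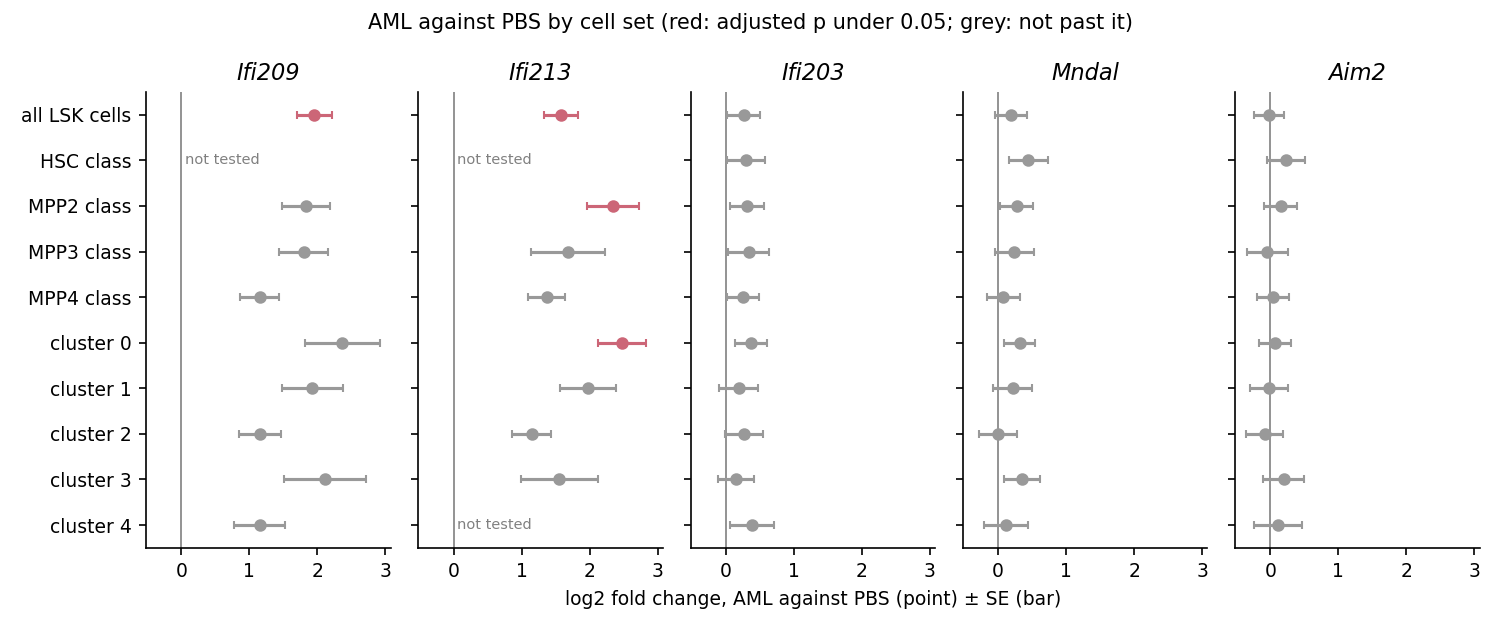
Log2 fold change (AML against PBS, bars ± SE) of 5 members in all LSK cells, the 4 classes and clusters 0 to 4, red where the adjusted p is under 0.05. Ifi209 and Ifi213 lie between 1.15 and 2.48 where they passed the filter on low counts, and Ifi203, Mndal and Aim2 lie between -0.08 and 0.44. Ifi209 and Ifi213 did not pass the filter in HSC, nor did Ifi213 in cluster 4. Both genes in cluster 3 and Ifi213 in MPP3 passed mainly through the AML libraries. The shared direction over the tested sets therefore follows in part from the filter.

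The clusters of the cell table divide the cells differently. Over clusters 0 to 4, with 3 PBS and 2 AML libraries each, Ifi213 rose in cluster 0, with 3.21, 1.57 and 3.34 CPM in PBS against 15.1 and 16.8 CPM in AML (log2 fold change 2.48 ± 0.350, edgeR adjusted p = 0.00867), a call shared by 0.0407% of all genes. The call was lost without PBS replicate 1 (edgeR adjusted p = 0.0710), PBS replicate 3 (0.159) or AML replicate 3 (0.0971) and with the replicate number as a block (0.434). No member passed in clusters 1, 2, 3 and 4, where 0.146%, 0.173%, 0.137% and 0.232% of all genes were called higher. At an unadjusted p under 0.05 there were 2 of 5, 3 of 7, 2 of 5 and 1 of 6 members tested, beside 893 of 11636, 674 of 11530, 429 of 10225 and 460 of 8615 genes. The 2 in cluster 3, Ifi209 and Ifi213, had 15 and 21 UMIs over all PBS libraries and passed the filter mainly through AML. Ifi213 did not pass the filter in cluster 4. Log2 fold changes of Ifi209 ran from 1.15 in cluster 4 to 2.36 in cluster 0, and those of Ifi213 from 1.15 in cluster 2 to 2.48 in cluster 0. In cluster 2, the cluster with the most Ifi213 UMIs, Ifi213 stood at 17.0, 13.7 and 18.7 CPM in PBS and 31.7 and 38.9 CPM in AML (log2 fold change 1.15 ± 0.289, edgeR adjusted p = 0.0778). Ifi209 there stood at 13.7, 9.63 and 17.2 CPM and 34.8 and 29.9 CPM (1.16 ± 0.308, edgeR adjusted p = 0.116). In cluster 1 the values were 2.71, 2.64 and 2.82 CPM against 10.9 and 10.8 CPM for Ifi213 (1.97 ± 0.408, edgeR adjusted p = 0.0545). In cluster 4 Ifi209 stood at 37.4, 12.2 and 22.4 CPM in PBS and 82.9 and 49.8 CPM in AML (1.15 ± 0.370, edgeR adjusted p = 0.246). In each of these the AML libraries lay above all PBS libraries, although no adjusted p passed. The share of all genes that did so within these clusters is not given, and over all LSK cells it was 14.6%. Monocyte markers in cluster 1 summed to 182 to 219 CPM in PBS and 668 and 363 CPM in AML replicates 1 and 3, with 5 of 12 tested called. They summed to 153 to 156 against 433 and 312 CPM in cluster 3 and to 677 to 1069 against 1806 and 1752 CPM in cluster 4. In cluster 2 they summed to 227 to 263 CPM in PBS and to 708 and 524 CPM in AML replicates 1 and 3. In cluster 4, 5 of 6 tested mast cell and basophil markers were called lower in AML (median log2 fold change -1.98), as was 1 of 3 erythroid markers. Of the neutrophil markers, 1 of 6 tested was called higher in cluster 0 (median 0.97), 2 of 4 in cluster 1 (median 1.76) and 1 of 3 in cluster 2 (median 0.29), where 4 of 11 tested monocyte markers were called higher as well. Monocyte markers in cluster 0 summed to 160 to 223 CPM in PBS and to 312 and 199 CPM in AML replicates 1 and 3. Their part in the members' values was not tested.

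Levels between clusters are described without a test, from UMIs pooled over the libraries of a group, with exact Poisson intervals at 95% that cover counting error only. Ifi209 and Ifi213 differed in where they were found. In PBS, Ifi213 was highest in cluster 2, at 17.0 CPM, and stood at 1.32 CPM (4 UMIs) in cluster 4, whereas Ifi209 stood at 14.1 CPM in cluster 2 and at 28.5 CPM (86 UMIs) in cluster 4. In AML the same order held, with Ifi213 at 39.4 and 4.14 CPM and Ifi209 at 30.8 and 51.3 CPM in clusters 2 and 4. Cluster 8, with few UMIs, came close in AML, with Ifi209 at 44.9 CPM (11 UMIs, interval 22.4 to 80.3). Ifi213 stood there at 36.7 CPM (9 UMIs, interval 16.8 to 69.7). In cluster 8 of PBS, Ifi209 stood at 22.7 CPM (6 UMIs) and Ifi213 at 7.58 CPM (2 UMIs). Cluster 2 gave 61.4% of all Ifi213 UMIs in PBS from 22.4% of the cells, and cluster 4 gave 22.8% of all Ifi209 UMIs from 3.04% of the cells. In cluster 4 the monocyte marker list summed to 1023 CPM in PBS and the neutrophil list to 6010 CPM, against at most 269 and 1310 CPM in any other cluster.

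**Figure D5:**
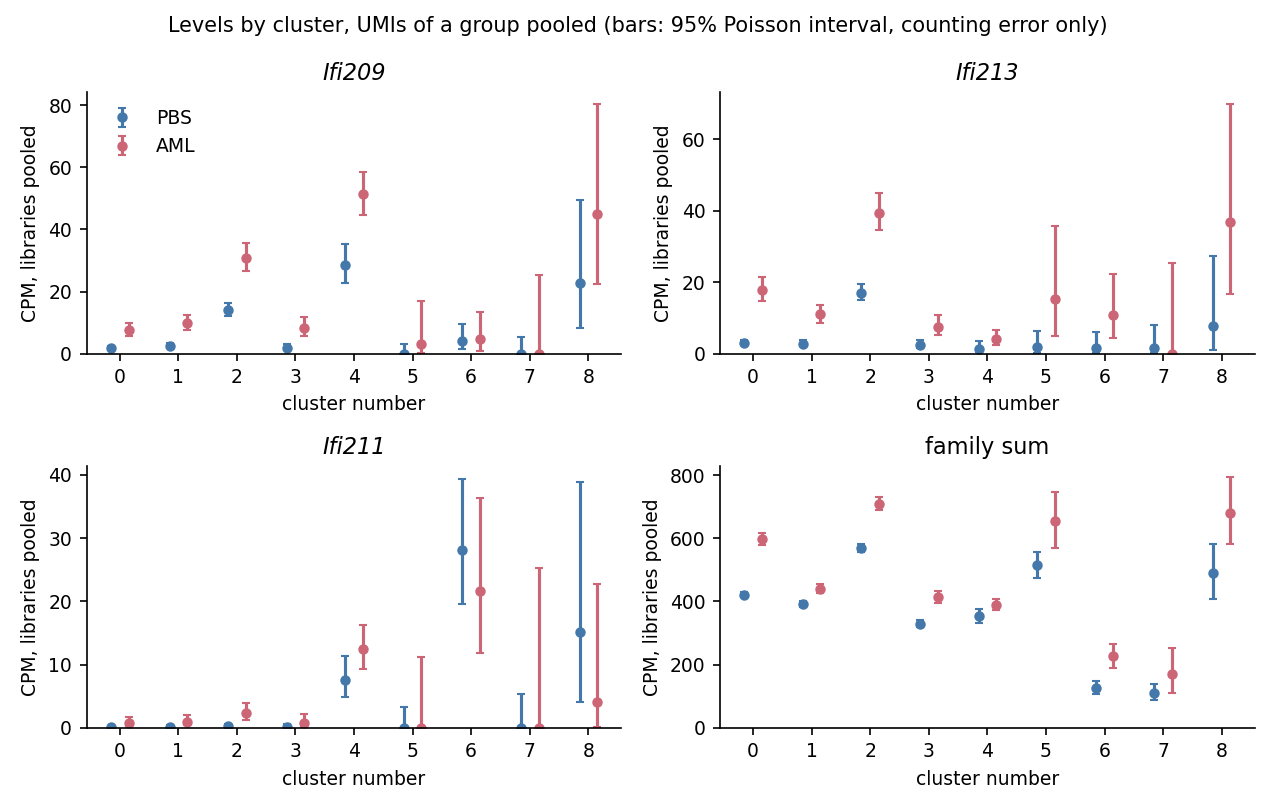
CPM of Ifi209, Ifi213, Ifi211 and the family sum in clusters 0 to 8, with UMIs pooled over the libraries of PBS (blue) and AML (red) and bars for the 95% Poisson interval of counting error. Ifi209 peaks in cluster 4 and Ifi213 in cluster 2, while the wide intervals of cluster 8 reach both peaks in AML. Ifi211 peaks in cluster 6 of PBS, and the family sum is lowest in clusters 6 and 7.

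Ifi211 had its own distribution. In PBS, cluster 6 gave 34 of its 68 UMIs from 0.896% of the cells, and cluster 4 gave 23 UMIs (33.8%). In AML, cluster 4 gave 55.1% and cluster 6 gave 14.3%. In cluster 6, markers of B and plasma cells made up 610203 of each 1000000 UMIs in PBS, so that CPM of every other gene there is scaled down. Without clusters 6, 7 and 8 the log2 fold change of Ifi211 over all LSK cells was 2.38 (edgeR adjusted p = 0.108), against 1.45 with them. Ifi207 was also concentrated in cluster 4, with 46.5% of its PBS UMIs, and Ifi208 in cluster 2, with 66.7%. The family sum in PBS ran from 330.1 to 568 CPM in clusters 0 to 5, was highest in cluster 2, and fell to 126 CPM in cluster 6 and 112 CPM in cluster 7. Erythroid markers summed to 8155 CPM in cluster 6 and 3871 CPM in cluster 7 of PBS. B and plasma cell markers summed to 11176 CPM in cluster 7 of PBS.

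The barcodes left out of the cell table were compared as a further set, chosen after seeing the data, since they include AML replicate 2. Ifi209 stood at 2.80, 4.42 and 2.46 CPM in PBS and at 9.92, 7.40 and 8.94 CPM in AML replicates 1, 2 and 3 (log2 fold change 1.53 ± 0.337, edgeR adjusted p = 0.0896). Ifi213 stood at 4.09, 3.09 and 6.60 CPM in PBS and at 14.4, 11.8 and 14.99 CPM in AML (1.52 ± 0.315, edgeR adjusted p = 0.0866). Both had 3 AML libraries above 3 PBS libraries, as did 17.6% of all genes, and neither was called, against 0.00819% of all genes. When the cells were instead required to show 1000 or more genes and no more than 10% of UMIs from mitochondrial genes, all 6 libraries entered and Ifi209 (1.92 ± 0.254, edgeR adjusted p = 0.00142) and Ifi213 (1.49 ± 0.266, edgeR adjusted p = 0.0136) were called, 2 of 9 members against 0.431% of all genes. AML then lay wholly above PBS in 4 of 9 members, against 10.3% of all genes, and the sum of the 9 members overlapped, with 414, 397 and 441 CPM in PBS and 522, 407 and 513 CPM in AML replicates 1, 2 and 3. The sum of the 6 scarce members did not overlap, with 13.6, 12.6 and 14.998 CPM in PBS and 46.9, 39.2 and 43.9 CPM in AML. Of 28 interferon-stimulated genes outside the family, 4 were called higher in these cells, with 27 positive. Monocyte markers had 7 of 14 tested called higher. These cells overlap with those of the cell table in 5 libraries, and AML replicate 2 contributed 106 cells, with 5 UMIs of Ifi209 and 4 of Ifi213.

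Across the 20 sums per library and class, the genes outside the family whose log2 CPM was most like that of the family sum were Foxp1 (Pearson r = 0.953), Dip2b (0.943), Znrf1 (0.939), Bcas3 (0.936) and Trim14 (0.934), among 5755 genes ranked. Of the members, Ifi203 had r = 0.976 with the sum and Mndal 0.932, whereas Ifi209 had 0.09 and Ifi211 -0.50. These sums share libraries, and the values are descriptions.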

How the data were processed

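Deposited UMI counts per gene and barcode, made by the authors with Cell Ranger 7.0.1 on GRCm38/mm10, were read for 6 libraries, together with the authors' cell table (class and cluster, made with R 4.2.2 and Seurat 4.3.0). These versions are from the submitters' processing notes. Annotation release, doublet handling and cell filters: not given in the sources used here. The percent of mitochondrial counts was computed from the deposited counts, and 18 columns of the cell table were not used. AML replicate 2 has no cells in the table, so groups hold 3 PBS and 2 AML libraries.

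Counts were summed per library and set of cells (at least 20 cells per sum). Genes were filtered with filterByExpr, scaled by TMM and tested with the edgeR 4.0.16 quasi-likelihood test in R 4.3.3, with Benjamini-Hochberg adjustment over all genes tested and a threshold of 0.05. CPM of members are TMM-scaled, and those of markers, clusters and likeness are per 1000000 UMIs. Fold changes carry edgeR's prior count, and 95% intervals are 1.96 SE wide on each side. Likeness used log2(CPM + 1) for genes of at least 20 CPM on average. Named genes were all members, up to 4 called genes per list, and the 5 genes most like the family sum. Members and gene lists were chosen with earlier results of these data known.

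Alternatives were DESeq2 1.42.0, limma-voom (limma 3.58.1), library size scaling, no filter, a replicate block, each library left out, sets without cluster 4 or clusters 6, 7 and 8, the sum without Ifi203, cells with at least 1000 genes and at most 10% mitochondrial counts, cells thinned to 2000 UMIs, and, added after seeing the data, barcodes outside the table, the sum of the 6 scarce members, and phase G1 alone. Python 3.11.15, scipy 1.17.1 and matplotlib 3.10.9 were used for tables and figures. The fits were tested on simulated data. UMIs are counted molecules. The Poisson intervals of pooled clusters cover counting error only, whereas those of fold changes include the spread between libraries.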

Additional observations from a re-analysis of the deposited data

Results flagged for a closer look

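AML replicate 2 has no cells in the cell table and entered none of the comparisons that use it, yet its barcodes hold UMIs of 5 of the 6 scarce members above the level of every PBS library in barcodes outside the table. Over all its barcodes Ifi213 stood at 14.0 CPM (99 UMIs), against at most 5.85 CPM in those of PBS. Ifi209 stood at 8.75 CPM (62 UMIs), against at most 4.02 CPM. Ifi204 stood at 2.68 CPM (19 UMIs), against at most 0.989 CPM, Ifi211 at 2.54 CPM (18 UMIs), against at most 0.879 CPM, and Ifi208 at 1.55 CPM (11 UMIs), against at most 0.550 CPM. Ifi207 stood at 0.846 CPM (6 UMIs), within the PBS range of 0.402 to 0.989 CPM. Of all 14515 genes with more than 3 UMIs in this library, 56.2% lay above every PBS library in the same way, so that such a level is common in it. These barcodes were not selected as cells, and no test was made of this library alone.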

How the results depend on the processing

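Of 617 alternatives to a single member's value, 543 kept direction and side of the threshold, 18 lost a call, 20 gained one and 36 turned direction, and the cause was not tested. Of 9 members, 2 were called in all LSK cells, 4 without a filter on low counts (Ifi204 and Ifi207 added), 1 with cells thinned to 2000 UMIs and 0 in barcodes outside the table, while leaving out single libraries gave 0 to 2. Genes called numbered 23, against 79 by DESeq2, 392 without a filter, 75 by the filter on genes and mitochondrial counts, 12 without cluster 4 and 10 after thinning. Leaving out 1 library gave 2 (PBS replicate 1), 8 (PBS replicate 2) and 419 (AML replicate 3) genes, and a lone AML library was assumed to vary like the others. Over 16 alternatives the log2 fold change of Ifi209 ran from 1.53 to 2.23 (14 called) and that of Ifi213 from 1.44 to 1.71 (10 called). Without a filter 1 member was called in HSC (29 genes of 18007), 3 in MPP2 (156 of 19253), 1 in MPP3 (166 of 18112), 2 in MPP4 (75 of 19345), 2 in cluster 0 (104 of 19511), 2 in cluster 1 (151 of 18285), 1 in cluster 2 (43 of 18193) and 2 in the interaction (Ifi211 and Ifi213, 506 of 21591). Scaling by library size only gave 2 in MPP2, 1 in MPP3, 1 in MPP4 and 2 in cluster 1, and DESeq2 gave 0 in MPP2, where it gave Ifi213 no adjusted p. The share of all genes called in these fits is not given, so these counts cannot be weighed against it. Leaving out 1 PBS library gave 0 to 1 in HSC (Ifi213, without PBS replicate 2), 0 in MPP2, MPP3 and MPP4, and 0 to 1 in cluster 0. It gave 0 in clusters 1, 2, 3 and 4 and in the interaction. Between classes it gave 6 to 7 members, where 5126 to 7136 genes were called. The share of all genes called in these fits within classes and clusters is not given. Fits without an AML replicate hold a single AML library within a class or cluster and are left out of these counts.

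Replicate numbers 1 and 3 are shared by the groups, but same-numbered libraries deviated together no more than others (r = -0.06 and -0.05), so the numbers were not taken to pair samples. With the replicate number as a block, 3 members were called in all LSK cells (Ifi204 added), among 91 genes called. The block gave 0 in HSC, 1 in MPP2, 1 in MPP3 (Ifi209), 0 in MPP4 and 0 in clusters 0, 1, 2, 3 and 4. The share of all genes called with it within classes and clusters is not given. Under the block the log2 fold change of Aim2 turned to 0.0204 in all LSK cells, 0.0582 in cluster 1 and -0.0011 in cluster 3, that of Ifi211 in MPP3 to 0.29 and that of Ifi207 in cluster 4 to -0.31.

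The log2 ratio of the family sum was 0.29 in all LSK cells, 1.74 for the 6 scarce members, 0.20 with the filter on genes and mitochondrial counts, 0.35 after thinning and 0.19 in barcodes outside the table. With library size only it was 0.52 in HSC, 0.52 in MPP3, 0.45 in cluster 0 and 0.34 in cluster 3. Leaving out single libraries gave 0.28 to 0.34 in all LSK cells, -0.0305 to 0.51 in HSC (negative without AML replicate 3), 0.33 to 0.42 in MPP2, 0.18 to 0.50 in MPP3, 0.0929 to 0.31 in MPP4, 0.35 to 0.44 in cluster 0, 0.18 to 0.28 in cluster 1, 0.0287 to 0.30 in cluster 2, 0.19 to 0.31 in cluster 3 and 0.16 to 0.70 in cluster 4.

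The direction of Aim2, near 0, turned in all LSK cells with library size only (0.0098), thinning (0.0191) and phase G1 alone (0.0034), and in MPP3 with library size only (0.10). Mndal in cluster 2 turned with DESeq2 (0.0028) and library size only (0.0707). On leaving out single libraries Aim2 ran from -0.23 to 0.15 in all LSK cells, -0.80 to 0.37 in HSC, -0.0163 to 0.26 in MPP2, -0.32 to 0.12 in MPP3, -0.0615 to 0.0904 in MPP4, -0.30 to 0.28 in cluster 0, -0.23 to 0.0996 in cluster 1, -0.35 to 0.0111 in cluster 2, -1.07 to 0.37 in cluster 3 and -0.0647 to 0.47 in cluster 4. Ifi203 ran from -0.18 to 0.46 in HSC, Ifi211 from -1.16 to 0.47 in MPP3, Ifi207 from -0.0314 to 0.27 in cluster 4, and Mndal from -0.17 to 0.22 in MPP4, -0.31 to 0.18 in cluster 2 and -0.0581 to 0.31 in cluster 4. Depth limits Ifi204, Ifi207, Ifi208 and Ifi211, with 2 to 10 UMIs each in AML replicate 1, and HSC, with 23 cells there.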
